A study of Mus musculus with 30 samples.

Results

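Transcripts of 10 vascular genes were followed in mouse ovaries: the growth factor Vegfa and its receptors Kdr and Flt1, the angiopoietins Angpt1 and Angpt2, the receptors Tek and Tie1, and the endothelial surface proteins Pecam1, Cdh5 and Eng. They were chosen by gene name, each matched exactly 1 row, and they make up 10 of the 50600 genes in the table. The groups were left and right ovaries of 7 female C57BL/6 mice given water with 3% dextran sulfate sodium (DSS) for 7 days before puberty, and left and right ovaries of 8 littermates without DSS, called control mice below. DSS, a sulfated dextran, damages the epithelium of the colon and so brings on colitis. The 30 ovaries were taken once the mice had reached sexual maturity, so each group records adult ovaries after an early insult and not the insult itself. No transgene or deletion is named in the labels, and the ages are not given there. Mice are called by treatment and label number, as in DSS_10.4, and the mouse was the replicate throughout (7 DSS and 8 control).

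Blood vessels of the ovary are rebuilt in every cycle, most densely around growing follicles and in the corpus luteum, the gland that forms after ovulation. VEGF-A, made by granulosa and luteal cells, acts on endothelial cells through the signalling receptor VEGFR2 (Kdr), while VEGFR1 (Flt1) binds it tightly and in part withholds it. Angiopoietin 1 activates the receptor TIE2 (Tek) and steadies vessels, angiopoietin 2 mostly opposes it and loosens them, and TIE1 is a partner of TIE2 with no well established ligand of its own. PECAM1 and VE-cadherin (Cdh5) hold endothelial cells together, and endoglin (Eng) is a co-receptor for BMP9 and TGF-beta.

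Levels are normalized counts, read counts divided by 1 factor per library, from CEL-Seq, which tags the 3′ ends of polyadenylated transcripts. The reads per library ranged from 3434761 to 8564770 in DSS ovaries and from 3095386 to 4807853 in control ovaries. All 10 genes had a mean of at least 5 normalized counts and were among the 14646 genes tested, with 5 to 1132 reads per library. Markers of the labelled tissue were present in all 30 libraries, with medians of 1426 for Amh of granulosa cells, 118 for Zp3 of oocytes and 2037 for Lhcgr of theca, luteal and mature granulosa cells, and the Y-linked Sry was at 0. RNA of neighbouring tissue varied between libraries. The oviduct marker Ovgp1 exceeded 5000 in 7 ovaries of 6 mice, 3 of them DSS mice, and the keratinocyte marker Krt5 exceeded 100 in 7 ovaries of 6 mice, 1 of them a DSS mouse. In the labels, left ovaries have odd and right ovaries even library numbers, so side and library number cannot be told apart.

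Vegfa was higher in the left than in the right ovary of every mouse. Vegfa (ENSMUSG00000023951.17) lies on the minus strand at chr17:46016693-46032369 in GRCm38.p5, and no other annotated gene overlaps it there. Its 3′ end in the file, like that of 9 of the 10 genes, reaches 300 bases past the annotated end. RefSeq gives 2 start sites for it, and the 300 bases around each (250 before to 50 after, GRCm38.p6, minus strand) are printed because Vegfa is the textbook target of hypoxia-inducible factors. Capitals mark ACGTG or GCGTG, the hypoxia response core, or its reverse complement. The upstream window is chr17:46032328-46032627 and the downstream one, inside the gene, is chr17:46025114-46025413.
Vegfa upstream start: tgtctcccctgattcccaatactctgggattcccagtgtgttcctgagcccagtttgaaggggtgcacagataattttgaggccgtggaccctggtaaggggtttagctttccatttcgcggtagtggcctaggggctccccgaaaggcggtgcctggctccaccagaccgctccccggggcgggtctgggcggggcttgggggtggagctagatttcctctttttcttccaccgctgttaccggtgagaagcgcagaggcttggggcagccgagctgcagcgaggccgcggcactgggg
Vegfa downstream start: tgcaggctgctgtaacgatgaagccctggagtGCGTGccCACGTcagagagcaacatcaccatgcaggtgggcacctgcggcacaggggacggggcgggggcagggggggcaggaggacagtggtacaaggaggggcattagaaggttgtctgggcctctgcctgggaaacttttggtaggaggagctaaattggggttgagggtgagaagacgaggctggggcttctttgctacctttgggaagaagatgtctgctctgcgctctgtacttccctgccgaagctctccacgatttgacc
The upstream window held 0 matches to the core and the downstream window 2, and 43.8% of all 32851 RefSeq windows of this length held at least 1. A match describes letters only, and a window without one says nothing of the factor.

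Left ovaries held 338 to 789 normalized counts of Vegfa with a median of 612, against 296 to 637 with a median of 483 in right ovaries. The ranges overlapped between mice, but within each of the 15 mice the left value was above the right. The share of all genes with this pattern is not given here. The means were 610.1 ± 95.9 in left and 482 ± 89.2 in right ovaries (SD, n = 15), a 1.27-fold difference. On the log2(value + 1) scale on which all differences below are given, the left-over-right difference was 0.34 (SE 0.06, limma adjusted p = 0.000479 over all genes). The difference in single mice ran from 0.04 in control_13.5 to 0.86 in control_15.4, with a median of 0.31. Of the 10 genes, Vegfa alone passed the threshold of 0.05, 1 of 10 with higher values in left ovaries, against a background of 4.56% of all 14646 genes called higher in left ovaries, 5.6% called higher in right ovaries and 10.2% in either direction.

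The Vegfa difference was present in both treatments. DSS left ovaries held 573 to 634 (median 598), against 385 to 507 (median 473) in DSS right ovaries, and these ranges did not overlap. For how many of all genes this holds is not given here. The log2 difference in DSS mice alone was 0.38 (limma adjusted p = 0.0365), in a fit that called 114 of 14781 genes, 32 of them higher on the left. Control left ovaries held 338 to 789 (median 642), against 296 to 637 (median 544) in control right ovaries. In control mice alone the difference was 0.31, which just missed the threshold (limma adjusted p = 0.0503), and its size in DSS minus control mice differed by 0.08 (95% interval -0.16 to 0.31). In bulk tissue, fewer cells of a type and less RNA per cell cannot be told apart, so a level here describes the whole ovary.

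Skin-type transcripts moved with side as well. The keratinocyte score, the mean log2 level of the 6 markers tested, was higher in the left ovary of 15 of 15 mice. Their summed level was 127 to 6438 in left and 39.5 to 882 in right ovaries, and 6 of 6 were called. Without the 6 mice that had an ovary above 100 Krt5, the Vegfa difference was 0.38 (limma adjusted p = 0.0294). With the keratinocyte score as a covariate it was 0.53 and no longer passed (adjusted p = 0.203), in a fit that called 5 of all genes in place of 1488. Across mice, the Vegfa difference and the keratinocyte difference had r = -0.37 (permutation p = 0.170, rho -0.38 with p = 0.164, adjusted p = 0.424 over the 15 relations computed). The oviduct markers were higher on the left in 8 of 15 mice, and with their score as a covariate the Vegfa difference was 0.34 (limma adjusted p = 0.000258). Macrophage genes were called higher on the left (4 of 9, among them the complement genes C1qa, C1qb and C1qc), and the haemoglobin gene Hba-a1 lower (-0.68, adjusted p = 0.0390). Their part in the result was not tested.

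**Figure D1:**
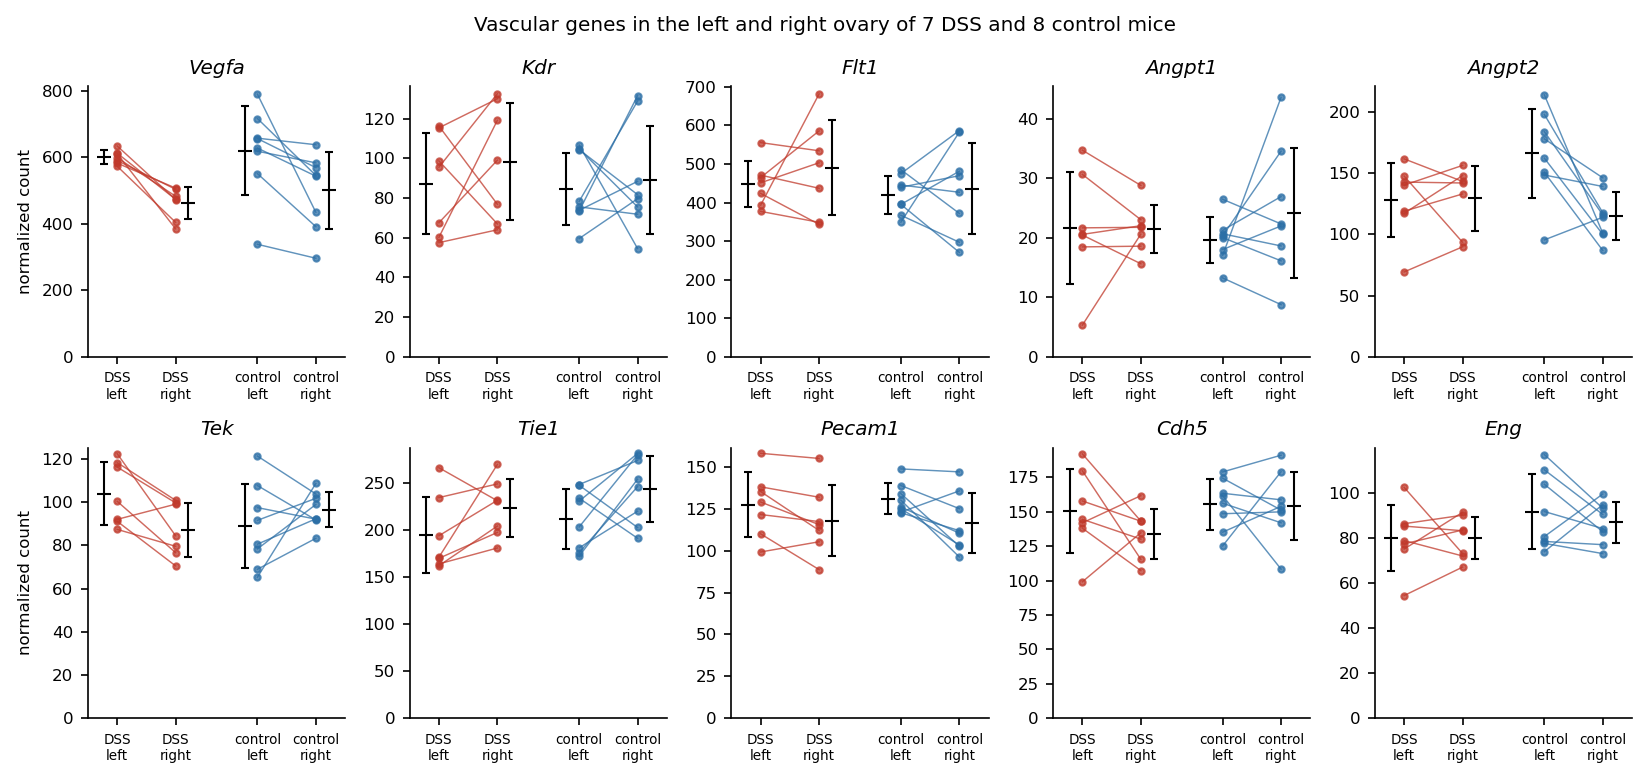
Normalized counts (y axis, from 0) of the 10 genes in DSS left, DSS right, control left and control right ovaries; each line joins the ovaries of 1 of 7 DSS (red) or 8 control (blue) mice, and black bars are means ± SD. All 15 Vegfa lines fall toward the right ovary, while lines of Kdr and Flt1 run both ways.

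Other genes of the hypoxia response are of interest beside Vegfa, because low oxygen stabilizes HIF proteins, which switch on these targets. Of the 16 tested hypoxia targets, 3 were called higher in left ovaries and 0 in right ovaries, against 4.56% and 5.6% of all genes. All 16 estimates were above 0, against 51.5% of all genes, with a median of 0.09 against 0.01 over all genes. The 3 were Car9, a carbonic anhydrase at 11.7 ± 4.22 in left and 5.70 ± 3.25 in right ovaries (log2 difference 0.99, adjusted p = 0.00500), Slc2a1, the glucose transporter GLUT1 (0.48, adjusted p = 0.0128), and P4ha2, a collagen prolyl hydroxylase (0.55, adjusted p = 0.0249), all by limma with n = 15 mice. The mean log2 level of the keratinocyte markers was higher on the left in the same 15 mice. With their score as a covariate 0 of the 16 targets were called and 15 estimates were above 0, with Car9 at 0.54 (adjusted p = 0.838), Slc2a1 at 0.57 (0.667) and P4ha2 at 0.39 (0.840). Without the 6 mice with an ovary above 100 Krt5, 0 were called as well, with Car9 at 0.99 (adjusted p = 0.0800), Slc2a1 at 0.49 (0.154) and P4ha2 at 0.58 (0.165), and without ovaries above 5000 Ovgp1 1 was called and 11 of the 16 estimates were above 0. Of the 8 tested genes of oxygen sensing, 2 were called, both lower on the left, where 5.6% of all genes were called lower. They were Epas1, which encodes HIF-2alpha (-0.23, adjusted p = 0.0324), and Hif1an, the asparagine hydroxylase that restrains HIF (-0.23, adjusted p = 0.0146). Under each of the 3 changes just given, 0 of the 8 were called. Mouse by mouse, no relation between the Vegfa difference and the mean difference of the targets was detected (r = 0.09, permutation p = 0.747, rho 0.25 with p = 0.377, adjusted p = 0.934 over 15 relations). Without the 2 mice farthest from the median r was 0.59 (permutation p = 0.0351), so the relation depends on which mice are included. In the RefSeq windows, Car9 had 1 match to the hypoxia core, Slc2a1 2 and P4ha2 4.

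Neither VEGF receptor passed the test between sides. Kdr (ENSMUSG00000062960.10, chr5:75932527-75978458, minus strand) held 57.6 to 116 in left ovaries (median 78.4), against 54.6 to 133 in right ovaries (median 81.8), and was higher on the left in 6 of 15 mice. The ranges lay over each other, with a log2 difference of -0.10 (95% interval -0.38 to 0.17, limma adjusted p = 0.697). Flt1 (ENSMUSG00000029648.13, chr5:147561304-147726011, minus strand) held 349 to 556 in left ovaries (median 439.7), against 271 to 682 in right ovaries (median 469.7), and was higher on the left in 8 of 15 mice (-0.06, 95% interval -0.24 to 0.13, adjusted p = 0.762). Right ovaries were the more variable for Flt1, with an SD of 54.5 in left and 120.0 in right ovaries. Of the other VEGF ligands and receptors, 0 of 6 tested were called. The closest were Vegfb, a ligand of VEGFR1 (-0.14, adjusted p = 0.247), and Nrp1, a VEGF co-receptor (0.10, adjusted p = 0.349).

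For angiopoietin 2 and TIE1 the differences between sides had opposite signs and did not pass the threshold over all genes. Angpt2 (ENSMUSG00000031465.6, chr8:18689963-18741562, minus strand) lies wholly within Mcph1, which is on the other strand, and the strand setting of the counting is not stated, so its counts are uncertain. It held 69.3 to 214 in left ovaries (median 148), against 86.8 to 156 in right ovaries (median 118), higher on the left in 10 of 15 mice (0.26, SE 0.11, limma adjusted p = 0.144). Tie1 (ENSMUSG00000033191.14, chr4:118470891-118490061, minus strand) held 162 to 266 in left ovaries (median 194), against 181 to 282 in right ovaries (median 232), lower on the left in 12 of 15 mice (-0.21, SE 0.07, adjusted p = 0.0689). Tie1 passed in 5 of the other fits: without ovaries above 5000 Ovgp1 (-0.27, adjusted p = 0.0496), once the oviduct score was added to the model (-0.21, 0.0454), and without DSS_15.1 (-0.24, 0.0447), control_10.5 (-0.24, 0.0289) or control_16.9 (-0.24, 0.0334).

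The test was not passed by Tek or Angpt1 either. Tek (ENSMUSG00000006386.15, chr4:94739289-94875276, plus strand) held 65.3 to 122 in left ovaries (median 92.1), against 70.5 to 109 in right ovaries (median 92.3), with a difference of 0.04 (95% interval -0.13 to 0.21). Angpt1 (ENSMUSG00000022309.8, chr15:42424427-42676977, minus strand) was counted with only 5 to 41 reads per library, and an antisense transcript, Gm17473, overlaps its start. It held 5.33 to 34.7 in left ovaries (median 20.5), against 8.77 to 43.6 in right ovaries (median 21.99), with a difference of -0.15 (95% interval -0.49 to 0.18). Of the 4 further regulators of the TIE2 axis, 0 were called, the closest being Ptprb, the phosphatase VE-PTP that turns TIE2 off (-0.13, adjusted p = 0.238), and Foxo1, the factor that TIE2 signalling keeps out of the nucleus (-0.15, adjusted p = 0.352).

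Among the endothelial surface genes, none passed. Pecam1 (ENSMUSG00000020717.19, chr11:106653917-106750628, minus strand) held 99.2 to 158 in left ovaries (median 129), against 88.7 to 155 in right ovaries (median 112), higher on the left in 13 of 15 mice (0.15, SE 0.05, limma adjusted p = 0.0846). Cdh5 (ENSMUSG00000031871.9, chr8:104101625-104144811, plus strand), whose start is overlapped by the antisense transcript Gm29682, held 99.2 to 192 in left ovaries (median 156), against 107 to 191 in right ovaries (median 143), a difference of 0.08 (adjusted p = 0.599). Eng (ENSMUSG00000026814.16, chr2:32646595-32682969, plus strand), whose 3′ end meets that of Fpgs on the other strand, held 54.4 to 117 in left ovaries (median 80.5), against 67.0 to 99.4 in right ovaries (median 83.4), a difference of 0.03 (adjusted p = 0.867). Counts at the 3′ end of Eng are uncertain for the same strand reason as those of Angpt2.

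Other vascular lists held between 0 and 2 calls each between sides, beside the 10.2% of all genes called in either direction, and nothing is read from so few. Of 22 endothelial cell markers tested, 1 was called, Mmrn2, a ligand of CD93 in vessel walls (-0.22, adjusted p = 0.0439), and the list median was 0.07 against 0.01 over all genes. In the endoglin pathway, 1 of 14 was called higher on the left, Id1, a target of BMP9 signalling (0.24, adjusted p = 0.0407), and 1 lower, Smad4, the common mediator (-0.24, adjusted p = 0.00638). Of 9 vascular Notch genes, Notch4, an endothelial receptor, was called lower (-0.35, adjusted p = 0.0250). Of 14 endothelial transcription factors, 0 were called, and Hhex (0.37, adjusted p = 0.0707) and Erg (-0.29, adjusted p = 0.0796) came closest. Of 7 secreted inhibitors of vessel growth, Serpinf1, which encodes PEDF, was called higher (0.17, adjusted p = 0.0273). Of 6 lymphatic genes, Mmrn1 was called higher (0.36, adjusted p = 0.0362) and Reln lower (-0.29, adjusted p = 0.0484). Of 12 pericyte and smooth muscle genes 0 were called, with Pdgfrb at 0.28 (adjusted p = 0.0891) and Pdgfb at 0.30 (adjusted p = 0.221). Of these 12, 10 estimates were above 0 (median 0.23), so a lean to the left was not particular to the hypoxia targets (median 0.09). All are limma values over 15 mice.

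**Figure D2:**
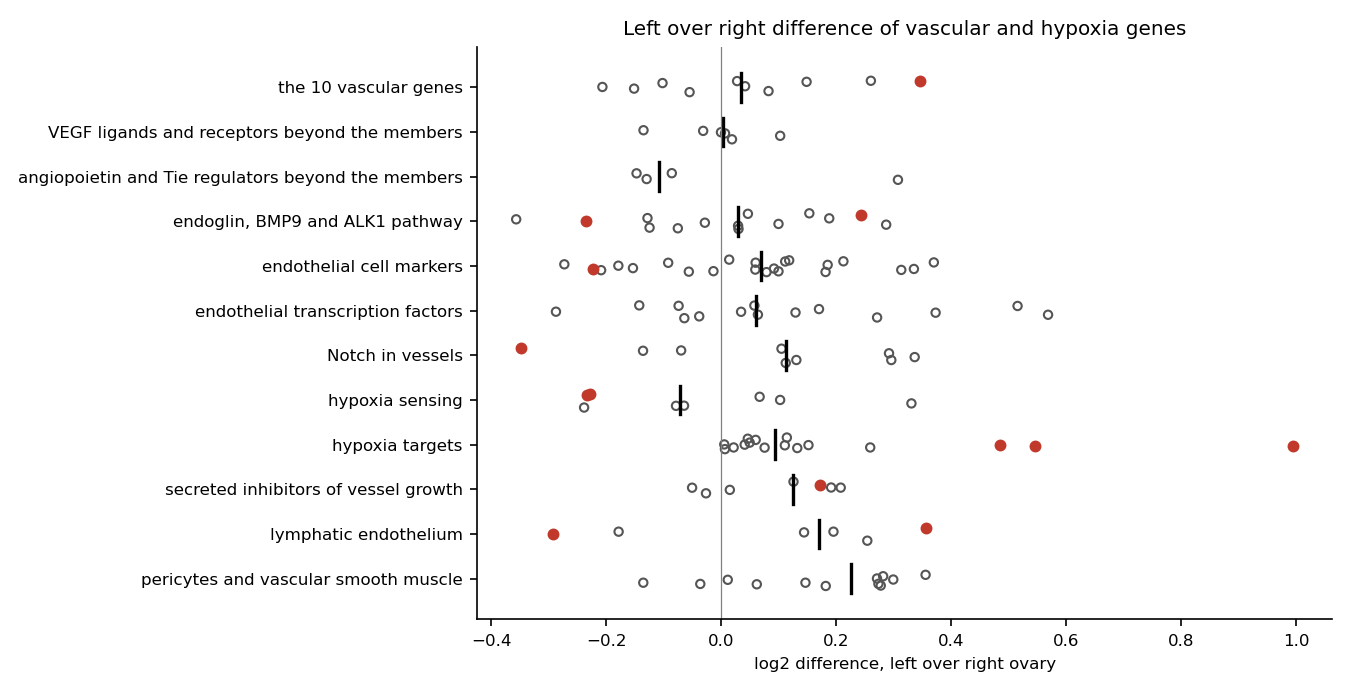
Log2 difference, left over right ovary (x axis), of each tested gene in the 10 vascular genes and 11 lists (rows); filled red points have an adjusted p under 0.05 over all genes tested, open points do not, and black bars are list medians. The 16 hypoxia targets all sit right of 0 with a median of 0.09, and Vegfa is the filled point of the top row.

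The main question of the series was whether DSS before puberty changed the adult ovary, and none of the 10 genes passed the test between DSS and control mice. Called by limma were 0% of all 14646 genes, with 1169 at an unadjusted p under 0.05, and 0 of the 10 vascular genes were at that level. edgeR called 6 and DESeq2 52 of all genes on the recovered reads, again with 0 of the 10. In each of the 10 genes the mouse means of DSS and control mice overlapped. The share of all genes that overlap is not given here, so this does not set the 10 apart. 3 of 10 estimates were above 0, against 50.6% of all genes, with a median of -0.03 against 0.00 over all genes.

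Vegfa averaged 530.5 ± 26.1 in DSS mice and 559 ± 112 in control mice (SD, n = 7 and 8). DSS mice ran from 488 to 553 (median 543), against 317 to 647 (median 606) in control mice, so all 7 DSS values lay below the control median yet inside the control range. The log2 difference was -0.05 (95% interval -0.30 to 0.20, limma adjusted p = 0.942). The coefficient of variation was 4.92% in DSS and 19.9% in control mice, and 1 control mouse, control_15.3, set the low end: its mean was 317, against 471 to 647 in the other 7. Without it the difference was -0.16 (adjusted p = 0.639).

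Eng, the receptor of the BMP9 axis, had the smallest p of the 10. DSS mice held 60.7 to 88.1 (median 83.1), against 75.2 to 105 (median 88.9) in control mice, with 7 of 7 DSS values below the control median and a difference of -0.16 (95% interval -0.35 to 0.03, limma adjusted p = 0.681). Without DSS_11.2, the lowest DSS mouse, it was -0.09 (adjusted p = 0.850). Tie1 held 173 to 248.9 in DSS mice (median 213), against 201 to 261.4 (median 219) in control mice (-0.13, adjusted p = 0.719). Cdh5 held 117 to 168 in DSS mice (median 148), against 135 to 185 (median 151) in control mice (-0.13, adjusted p = 0.713). These 3 endothelial genes lay on the same side of 0, each by less than the spread between mice. The estimates of Flt1, Kdr and Tek, given below, lay on the other side. Of the 22 endothelial cell markers tested, 11 were above 0, with a median of 0.00. Markers of some other tissues had higher estimates in DSS mice without a call: 8 of 8 oviduct markers (median 0.94), 5 of 5 adipocyte markers (median 1.08) and 8 of 9 of the ovarian surface epithelium (median 0.21). The keratinocyte markers went the other way, with 0 of 6 above 0 (median -1.84), also without a call. With the oviduct score as a covariate the difference of Eng was -0.09, that of Cdh5 -0.07 and that of Tie1 -0.07, and with the adipocyte score -0.09, -0.07 and -0.08.

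For the receptors and angiopoietins the intervals also spanned 0. Flt1 held 363 to 545 in DSS mice (median 477), against 332 to 531 (median 437) in control mice (0.13, 95% interval -0.09 to 0.36). Kdr held 60.8 to 123 in DSS mice (median 89.7), against 69.7 to 104 (median 85.7) in control mice (0.08, -0.19 to 0.35). Angpt2 held 79.6 to 152 in DSS mice (median 133), against 105 to 162 (median 147) in control mice (-0.14, -0.40 to 0.13). Kdr, Tie1, Angpt2, Eng and Cdh5 were all at their lowest in DSS_11.2, whose left ovary also had the highest Ovgp1 of all 30 libraries, 66716. Angpt1 held 12.97 to 31.8 in DSS mice (median 21.3), against 11.02 to 30.3 (median 22.05) in control mice (-0.01, -0.43 to 0.41). Tek (0.04, -0.14 to 0.23) and Pecam1 (-0.02, -0.21 to 0.17) were the genes with the smallest estimates beside Angpt1.

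The lists around the 10 genes gave 0 calls for DSS in each case. Among the VEGF ligands and receptors, Nrp2, a VEGF co-receptor, averaged 344 ± 44.9 in DSS mice and 386 ± 50.7 in control mice (-0.17, adjusted p = 0.648). Ptprb averaged 198 ± 20.2 in DSS mice and 171 ± 31.6 in control mice (0.23, adjusted p = 0.593). Col18a1, the precursor of endostatin, averaged 127 ± 11.06 in DSS mice and 145 ± 15.7 in control mice (-0.19, adjusted p = 0.565). The endothelial markers had a median of 0.00 over 22 genes, the hypoxia targets 0.01 over 16 and the pericyte and smooth muscle genes 0.15 over 12, each with 0 called by limma.

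**Figure D3:**
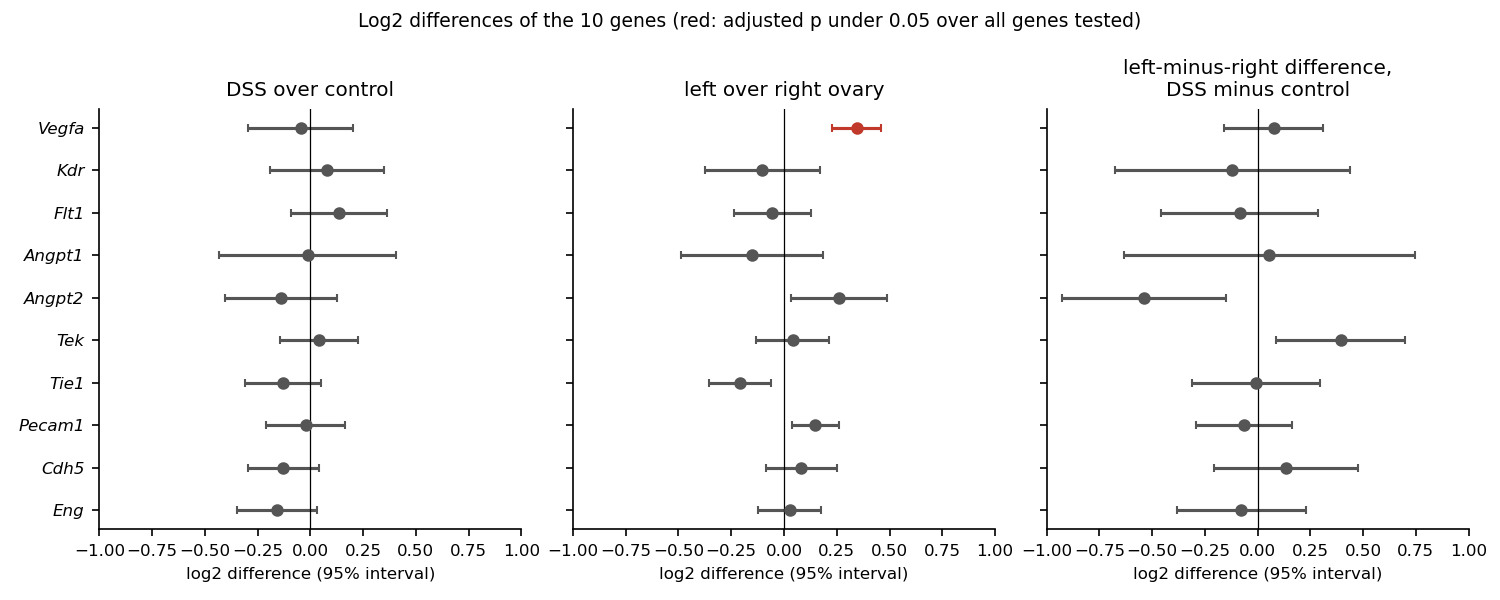
Log2 differences (x axis) with 95% intervals of the 10 genes (rows) for DSS over control, left over right ovary, and the left-minus-right difference in DSS minus control mice; red marks an adjusted p under 0.05 over all genes tested. Vegfa, at 0.34 in the middle panel, is the red point, and all 10 intervals in the left panel include 0.

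Whether the effect of DSS differed between sides was tested on the left-minus-right difference of each mouse. Of the 14646 genes 0% were called by limma (1248 at an unadjusted p under 0.05, 1 by edgeR, 2 by DESeq2), and of the 10 genes 0, with 2 at an unadjusted p under 0.05: Angpt2 and Tek, a ligand and its receptor, in opposite directions. Angpt2 in DSS mice held 69.3 to 162 (median 140.2) in left and 89.8 to 156 (median 142) in right ovaries, and in control mice 95.5 to 214 (median 170.1) in left and 86.8 to 146 (median 115) in right ovaries. It was higher on the left in 3 of 7 DSS mice and in 7 of 8 control mice. The mean left-minus-right difference was -0.03 in DSS mice and 0.51 in control mice, which differed by -0.54 (SE 0.19, limma adjusted p = 0.542). In control mice alone the left-over-right difference of Angpt2 passed (0.51, limma adjusted p = 0.0364). That fit called 404 of 14524 genes, 185 of them higher on the left. A pass in 1 treatment does not test whether the treatments differ.

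The oviduct markers also differed in their side pattern, without a call. All 8 had a higher left-minus-right difference in DSS than in control mice, with a median of 2.49 and 0 called. Across mice, the Angpt2 difference and the oviduct difference had r = -0.60 (permutation p = 0.0186, rho -0.59 with p = 0.0218, adjusted p = 0.179 over 15 relations), and -0.46 without the 2 farthest mice (permutation p = 0.114). Adjusted for the oviduct score, the DSS-minus-control difference of Angpt2 was -0.34 (limma adjusted p = 0.9998), and without ovaries above 5000 Ovgp1 it was -0.30 (limma adjusted p = 0.9995).

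Tek in DSS mice held 87.4 to 122 (median 100.4) in left and 70.5 to 101 (median 84.5) in right ovaries, and in control mice 65.3 to 121 (median 86.1) in left and 83.3 to 109 (median 95.6) in right ovaries. It was higher on the left in 6 of 7 DSS mice and in 3 of 8 control mice. The mean difference was 0.25 in DSS mice and -0.14 in control mice, which differed by 0.39 (SE 0.15, limma adjusted p = 0.542). Adding the oviduct score to the model gave 0.42 (limma adjusted p = 0.9998), and leaving out ovaries above 5000 Ovgp1 gave 0.41 (limma adjusted p = 0.9995). The Tek difference and that of the hypoxia targets had r = 0.58 over mice (permutation p = 0.0238, rho 0.64 with p = 0.0122, adjusted p = 0.179 over 15 relations), and 0.65 without the 2 farthest mice (permutation p = 0.0162).

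A ligand and its receptor could vary together from mouse to mouse, and 6 such pairs were compared over the means of both ovaries of 15 mice. None passed. Vegfa with Flt1 had r = 0.37 (permutation p = 0.178, adjusted p = 0.535 over the 6 pairs, rho 0.16 with p = 0.560) and -0.10 without the 2 mice farthest from the Vegfa median. Vegfa with Kdr had r = 0.15 (permutation p = 0.577, rho 0.07 with p = 0.812, adjusted p = 0.890). Angpt2 with Tie1 had r = 0.40 (permutation p = 0.139, rho 0.08 with p = 0.783, adjusted p = 0.535) and -0.03 without the 2 farthest mice, so the 2 higher values rested on the mice left out. Angpt1 with Tek had r = -0.13, Angpt2 with Tek -0.01 and Angpt1 with Tie1 0.09, and these too depended on single mice. Without control_15.3 Angpt1 with Tek was -0.61 (permutation p = 0.0193, adjusted p = 0.116), and without DSS_11.2 it was 0.046, Angpt2 with Tek 0.44 and Angpt1 with Tie1 -0.18.

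Within sides and treatments, 2 relations stood out from these. In right ovaries, Vegfa and Flt1 had r = 0.55 (permutation p = 0.0320, rho 0.44 with p = 0.101, adjusted p = 0.192), against 0.14 in left ovaries, and their left-minus-right differences had r = 0.53 (permutation p = 0.0414, rho 0.46 with p = 0.0876, adjusted p = 0.248). In the 7 DSS mice, Angpt1 and Tek ran in opposite directions, with r = -0.86 (exact permutation p = 0.00794, adjusted p = 0.0476 over the 6 pairs) and rho -0.89 (exact permutation p = 0.0123, adjusted p = 0.0738). The adjustment covers the 6 pairs in DSS mice only and not the other sides and treatments compared, so this pass is weak. The highest Angpt1, 31.8 in DSS_10.4, came with the lowest Tek, 80.8, and the lowest Angpt1, 12.97 in DSS_11.2, with the highest Tek, 109.6. Without the 2 mice farthest from the Angpt1 median r was -0.74 over 5 mice, too few for a test. In the 8 control mice r was 0.49 (exact permutation p = 0.220), and the difference between treatments was not tested.

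**Figure D4:**
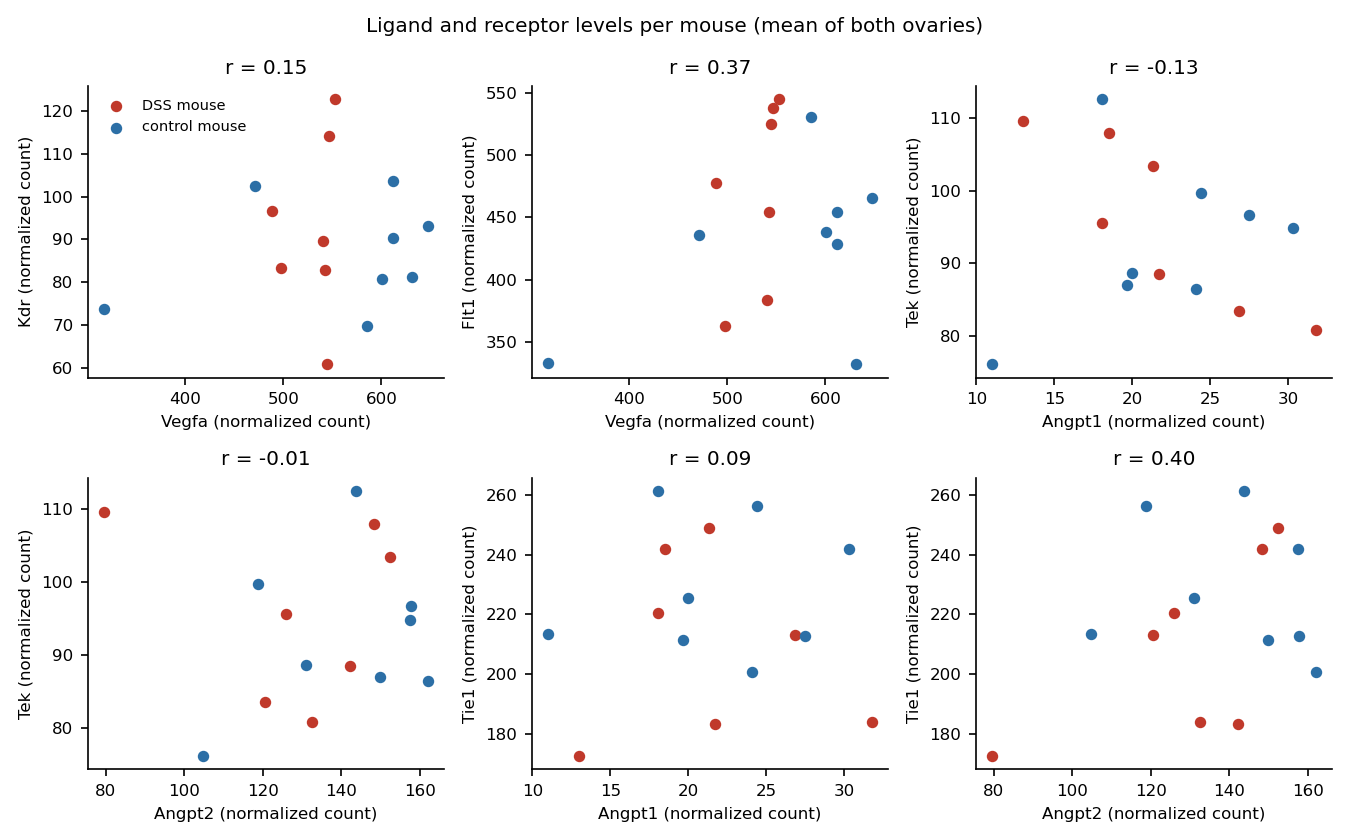
Receptor against ligand level (normalized counts, mean of both ovaries) for the 6 pairs; each point is 1 DSS (red) or control (blue) mouse and the title gives Pearson's r over 15 mice. The lone blue point at the left of both Vegfa panels is control_15.3 at 317, and the red points of the Angpt1 and Tek panel run downward.

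Tie1, Cdh5 and Eng varied together between mice. Over 15 mouse means, Tie1 and Cdh5 had r = 0.70 (rho 0.57), Cdh5 and Eng 0.69 (rho 0.65), and Tie1 and Eng 0.69 (rho 0.60), given as descriptions with no test, as are all pairs in this paragraph. Leaving out DSS_11.2, which was lowest in all 3, they were 0.58, 0.51 and 0.54. Without the 2 mice farthest from the median of the first gene, Tie1 and Cdh5 had 0.55, Tie1 and Eng 0.50, but Cdh5 and Eng 0.26. All 3 genes also ran against the scores of some other tissues over the same mice. With the oviduct score r was -0.61 for Tie1, -0.60 for Cdh5 and -0.68 for Eng, with that of the ovarian surface epithelium -0.62, -0.67 and -0.69, and with that of adipocytes -0.52, -0.67 and -0.67. With the granulosa score r was 0.37, 0.59 and 0.61, and with the oocyte score 0.29, 0.46 and 0.52. With the score of the endothelial cell markers it was 0.14 for Tie1 but -0.39 for Cdh5 and -0.29 for Eng. The part of these in the shared variation was not tested. Only 0.147% of the 10884 other genes with a mean of at least 20 had as high an r with Tie1 as Cdh5 did, and 0.193% as high as Eng did. Pecam1, the other junction gene, did not join them, with r of -0.05 with Tie1, -0.09 with Cdh5 and -0.03 with Eng, and had its highest r of the 10 genes with Kdr (0.62, rho 0.49), which was 0.29 without the 2 farthest mice. Angpt1 and Angpt2 had r = 0.61 (rho 0.43), and 0.03 without the 2 mice farthest from the Angpt1 median. Flt1 and Cdh5 ran in opposite directions (r = -0.54, rho -0.54). Of the 45 pairs, 31 were positive and the median r was 0.15, and all points share the libraries' normalization and any RNA of neighbouring tissue.

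**Figure D5:**
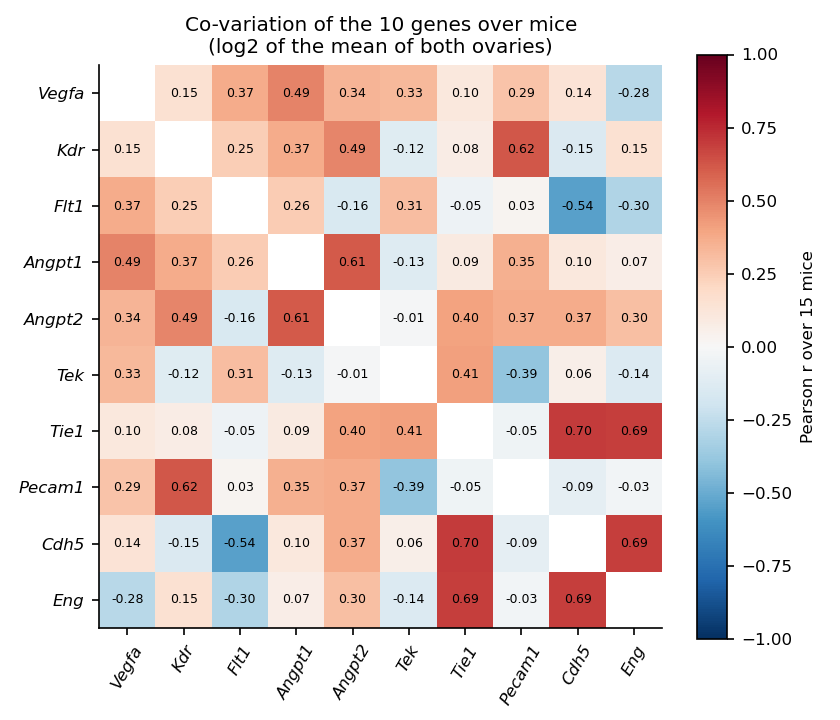
Pearson's r (colour scale from -1 to 1, values printed) for the 45 pairs of the 10 genes over 15 mice, on the log2 mean of both ovaries. Tie1, Cdh5 and Eng form a block at 0.69 to 0.70, and Flt1 with Cdh5 is lowest at -0.54.

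The promoters of Tie1 and Eng are printed because these genes varied together and ETS factors are known to drive endothelial genes. The windows are chr4:118489800-118490099 (minus strand) and chr2:32646345-32646644 (plus strand) in GRCm38.p6, from RefSeq, and capitals mark AGGAAG or CGGAAG, the ETS core, or its reverse complement.
Tie1: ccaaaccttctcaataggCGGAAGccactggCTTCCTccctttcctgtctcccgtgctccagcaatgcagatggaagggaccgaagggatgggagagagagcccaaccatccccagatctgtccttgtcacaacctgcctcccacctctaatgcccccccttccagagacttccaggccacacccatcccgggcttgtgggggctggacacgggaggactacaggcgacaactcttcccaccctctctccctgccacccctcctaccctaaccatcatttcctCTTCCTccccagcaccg
Eng: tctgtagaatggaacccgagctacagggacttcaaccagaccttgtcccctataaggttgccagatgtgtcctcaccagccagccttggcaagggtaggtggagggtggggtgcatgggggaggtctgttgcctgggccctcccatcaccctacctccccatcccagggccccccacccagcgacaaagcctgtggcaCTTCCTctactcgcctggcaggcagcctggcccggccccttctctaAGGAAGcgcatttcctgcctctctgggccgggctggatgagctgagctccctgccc
Tie1 held 3 matches and Eng 2. Flt1 held 2, and Kdr, Tek and both Vegfa windows 0, against 46.5% of all windows with at least 1. RefSeq windows were matched for 6 of the 10 genes, Vegfa, Kdr, Flt1, Tek, Tie1 and Eng. Of the other motifs, the GATA core AGATAA was found in the upstream Vegfa window and in Tek, against 11.18% of all windows. The SOX core AACAAT was found only in Tek among the 6, against 10.7% of all windows. The end of the FOX:ETS motif, AACAGG, was likewise found only in Tek, against 16.7%, and the hypoxia core also in Kdr (2) and Flt1 (1). Both strands were searched, and AACAGG and AGGAAG can share their 3 letters AGG.

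A mouse's ovaries were compared to see which genes differ between animals more than between the ovaries of 1 animal. Of all genes, 0.3% had a left-right correlation over mice past the threshold (permutation, adjusted over all genes), and of the 10, 0 did. Vegfa had r = 0.68 (permutation p = 0.0111, adjusted p = 0.345, rho 0.56 with p = 0.0305) and Pecam1 0.67 (permutation p = 0.00551, adjusted p = 0.268, rho 0.54 with p = 0.0394), while the other 8 lay between -0.10 for Kdr and 0.38 for Eng. The Vegfa value fell to 0.28 without control_15.3, and that of Pecam1 stayed between 0.56 and 0.74 whichever mouse was left out. Counting error made up 3.93% of the variance between mice for Vegfa and 4.62% for Flt1, but 29.6% for Angpt1, 37.3% for Tek and 43.7% for Eng.

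The genes most like Vegfa owed much of that likeness to the mouse control_15.3. Over 30 ovaries, after removal of the means of the 4 treatment and side groups, the genes with the highest r to Vegfa were Acvr2a, an activin receptor (0.87), Pappa, a protease that frees IGF from its binding proteins in follicles (0.87), and Phkg1, a muscle phosphorylase kinase subunit (0.83). Without control_15.3 they were 0.62, 0.58 and 0.58. In that mouse Vegfa was 338 in the left and 296 in the right ovary, against 385 to 789 in the other 28 ovaries. Pappa was 6.63 and 7.01, against 43.5 to 142, and Acvr2a 629 and 671, against 878 to 1300. Pappa and Acvr2a were picked for their r with Vegfa, which leans on this mouse, so their low values here follow from the choice. The luteal and theca gene Lhcgr, which was looked up after these values were seen, was 371 and 421, against a median of 2064 in the other 28 ovaries, of which 1 was lower. The sum of the corpus luteum list, which holds both Lhcgr and Star, was 110169 and 112580. The median of the other 28 ovaries was 159298, and 1 of them was lower. Star, which carries cholesterol into mitochondria for steroid synthesis, was 2940.1 and 2792, against a median of 5082, with 2 of the 28 lower. The sum of the oocyte list was near the top of the range, 1888 and 1666 against a median of 1349. Of the other 28 ovaries, 27 were below the left value and 24 below the right. The sum of the granulosa list was 21281 and 20244, against a median of 20021. The part of these in the Vegfa value was not tested. Both ovaries of the animal shared the low values.

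The genes most like the other members, over all mice, were as follows. Angpt1 was most like Cited1, a transcriptional co-regulator (0.82), Scarb1, the HDL receptor of luteal and theca cells (0.81), and Abhd4, a lipase (0.80), and these were 0.68, 0.65 and 0.65 without DSS_11.2. Angpt2 was most like Zc3h14, a poly(A)-binding protein gene (0.76), Slc38a3, a glutamine transporter (0.76), and Heph, the ferroxidase hephaestin (0.76). Tek was most like Trp53rkb (0.73), Pdgfrb, the receptor that marks pericytes (0.70), and Nab1 (0.68), and Tie1 most like Bmp2, a bone morphogenetic protein (0.67). Flt1 reached 0.70 with Fam19a5, Cdh5 0.72 with Rab5a, a GTPase of early endosomes, Eng 0.75 with Map2k2, the kinase MEK2, Pecam1 0.67 with Tmem268 and Kdr 0.61 with Dynlt1c. Among the 10 themselves, Cdh5 ranked 42 of 10884 in likeness to Tie1, and Eng ranked 785. Angpt1 ranked 58 in likeness to Kdr, and Flt1 ranked 553 in likeness to Vegfa.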

How the data were processed

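Total RNA of each ovary was extracted with TRIzol and made into CEL-Seq libraries with a pool of 3 primers per sample, per the labels' protocols. The submitters' processing notes name TopHat, HTSeq and DESeq2 with the genome build GRCm38.p5; versions, the strand setting and the use of molecular identifiers are not given in the sources used here. The authors deposited a normalized signal per gene: counts divided by 1 size factor per library. Values were whole multiples of a step per library (0.53 to 1.33), and dividing by it gave whole reads for 99.99% to 100% of genes within 0.0051 normalized counts. The step was within 1.2% of 1 in 3 libraries. Reads summed to 3095386 to 8564770 per library (median 4305814), and 21274 of 50600 genes were at 0 throughout.

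Tests were two-sided, with limma 3.58.1 (trend option, R 4.3.3), on log2(normalized count + 1) of the 14646 genes whose mean reached 5, with Benjamini-Hochberg adjustment over all of them and a threshold of 0.05. This scale understates changes of low genes. DSS and control mice were compared on the mean of both ovaries, sides per ovary with the mouse as a block, since both ovaries come from 1 animal, and the DSS effect on each side through left minus right differences per mouse. Correlations over mice used 100000 permutations, or all of them for 7 or 8 mice. Left-right likeness was adjusted over all genes, in place of the 10 members first planned. edgeR 4.0.16 and DESeq2 1.42.0 on the recovered reads were alternatives. The limma tests were tested on simulated data in which, of 14646 genes, 50 were changed at each of 4 sizes. For left over right, 34% of genes changed 1.25-fold and 64% changed 1.5-fold were recovered, and for DSS over control 22% and 54%. For the difference between sides 2% and 18% were recovered, and 46% of genes changed 2-fold, so that test misses most changes of these sizes. Each simulated library was drawn on its own, with no effect shared by the 2 ovaries of a mouse, unlike the paired data. That the mice are separate animals is read from the labels. For DSS over control, p-values rest on the spread between mice. For left over right and the difference between sides, they rest on how left minus right differences vary from mouse to mouse.

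The text names all 10 members in each comparison, and from each of 22 gene lists the genes past the threshold or else the 2 with the smallest p; lists of other cell types are named only where they bear on a member. The genes most like a member are the 3 with the highest r over the 30 ovaries with group means removed, among genes with a mean of at least 20. Members and lists were chosen with earlier results of these data known. Gene positions are as deposited, strands and overlaps come from GENCODE M21, and promoters from RefSeq (GRCm38.p6).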

Additional observations from a re-analysis of the deposited data

Results flagged for a closer look

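In each of the 10 genes, the DSS and the control mice were screened for a single animal far from the rest, in the left ovary, the right ovary, their mean and their left minus right difference, 80 groups in all. Chance flags about 5% of such groups, and 1 was flagged. The left minus right difference of Angpt1 in DSS_11.2 was -1.77 on the log2 scale, against -0.09 to 0.40 in the other 6 DSS mice. It came from 5 reads in the left and 28 in the right ovary, or 5.33 and 20.6 normalized counts. The same left ovary had the highest Ovgp1 of the 30 libraries, 66716, and the lowest sums of the corpus luteum list (47499, against 110169 to 196431 in the ovaries of other mice), the oocyte list and the granulosa list. The part of these in the Angpt1 value was not tested. Without this mouse the left-over-right difference of Angpt1 was -0.04, in place of -0.15, and did not pass either (limma adjusted p = 0.910).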

How the results depend on the processing

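The left-over-right difference of Vegfa kept its direction in all 30 other fits, from 0.31 to 0.37 when 1 mouse was left out, and lost its call in control mice alone (adjusted p = 0.0503) and with the keratinocyte covariate (0.203); the causes were not tested. Mouse numbers pair the ovaries of 1 animal; without the replicate block the fit called 1163 genes in place of 1488, and Vegfa still passed (adjusted p = 0.0184). Counts of genes called for left over right were 733 without ovaries above 5000 Ovgp1, 114 in DSS mice alone, 404 in control mice alone, and, by settings chosen after seeing the data, 5 with the keratinocyte covariate and 313 without the Krt5 mice. Fewer mice enter several of these fits. Leaving out 1 mouse gave 1184 to 1580. For DSS over control, 0 calls became 10 without ovaries above 5000 Ovgp1, 11 in left and 1 in right ovaries, 3 with the number before the point as a block, 6 by edgeR and 52 by DESeq2, and 0 to 13 with 1 mouse left out (13 without DSS_15.1). For the difference between sides, 0 became 1 by quantile normalization, without ovaries above 5000 Ovgp1, with the oviduct covariate (chosen after seeing the data) and by edgeR, 2 by DESeq2, and 0 to 2 with 1 mouse left out. Of the pairs, 1 passed in DSS mice alone, by r and not by rho, with adjustment over the 6 pairs of that subset only. Of the 10 likeness values, 0 passed in any setting.

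Signs turned only among values that did not pass, and the causes were not tested. For DSS over control, in right ovaries Tek was -0.15, Pecam1 0.013 and Angpt2 0.16, and in left ovaries Angpt1 0.0042; with the keratinocyte covariate Tek was -0.0025 and Angpt1 0.055; Pecam1 was 0.0085 with the label block; Angpt1 was 0.19 without ovaries above 5000 Ovgp1, 0.0022 by edgeR and 0.00055 by DESeq2. For left over right, Eng was -0.015 in DSS mice, -0.17 with the keratinocyte covariate and -0.052 without the Krt5 mice, Tek -0.14 in control mice, Angpt1 0.022 without ovaries above 5000 Ovgp1 and Angpt2 -0.027 in DSS mice. For the difference between sides, the oviduct covariate gave Eng 0.034, Tie1 0.092, Pecam1 0.012 and Flt1 0.022, leaving out ovaries above 5000 Ovgp1 gave Tie1 0.27 and Flt1 0.012, and quantile normalization gave Angpt1 -0.011. With 1 mouse left out, DSS over control ran from -0.084 to 0.025 for Pecam1 and -0.14 to 0.095 for Angpt1, left over right from -0.0050 to 0.055 for Eng, and the difference between sides from -0.077 to 0.066 for Tie1, -0.11 to 0.33 for Angpt1, -0.19 to 0.031 for Flt1 and -0.25 to 0.023 for Kdr.

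Among correlations, Vegfa with Kdr was -0.18 without the 2 farthest mice, -0.034 in right ovaries and -0.042 over side differences; Vegfa with Flt1 -0.098, Angpt1 with Tie1 -0.35 and Angpt2 with Tie1 -0.032 without the 2 farthest mice; Angpt1 with Tek 0.49 in control mice; Angpt2 with Tek 0.0077 by TMM scaling, 0.0076 with the oviduct score removed, 0.021 with treatment means removed, 0.20 without the 2 farthest mice and 0.36 in control mice; Angpt1 with Tie1 -0.26 in right ovaries and -0.27 over side differences; Angpt2 with Tie1 -0.021 in right ovaries and -0.20 in control mice. With 1 mouse left out they ran from -0.14 to 0.21 for Vegfa with Kdr, -0.061 to 0.58 for Vegfa with Flt1, -0.61 to 0.046 for Angpt1 with Tek, -0.23 to 0.44 for Angpt2 with Tek and -0.18 to 0.28 for Angpt1 with Tie1. The left-right likeness was -0.36 for Angpt2 and -0.077 for Eng without the 2 farthest mice, -0.051 and -0.21 for Cdh5 with treatment means or the oviduct score removed, and with 1 mouse left out -0.27 to 0.029 for Kdr, -0.091 to 0.26 for Tek, -0.22 to 0.24 for Angpt2 and -0.14 to 0.15 for Cdh5. Angpt1 had the fewest reads, 5 to 41 per library, and counting error took its largest share of the variance in Eng (43.7%).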
